A study of Homo sapiens with 9 samples.

Results

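The human mitochondrial chromosome is listed in the deposited gene table as 37 rows, chosen here as every row with MT in its chromosome column, out of 60612 rows in all. They comprise 13 mRNAs, 2 rRNAs and 22 tRNAs, which is the full gene content of human mitochondrial DNA, and the position, identifier and length of all 37 match GENCODE release 29 on GRCh38. The rows were measured by RNA sequencing in MV4-11, a human acute myeloid leukaemia cell line with an MLL fusion, in 9 libraries that carry the title stems KO1, NC1 or NCO, 3 libraries to a stem. Per their characteristics, KO1 is wild type given vehicle, NC1 is wild type given decitabine, and NCO is a CD36 knockdown given decitabine, all taken at 72 h. Decitabine is a cytosine analogue that traps DNA methyltransferases, and CD36 is a receptor for fatty acids on the cell surface. No group is labelled as a knockdown given vehicle. The labels do not state how the knockdown was made, whether it is a clone, or whether replicates were separate cultures, so p-values here cover the spread from library to library and nothing wider.

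The gene named in the knockdown label goes against that label. CD36 averaged 0.126 ± 0.0231 FPKM for KO1, 2.18 ± 0.373 for NC1 and 2.49 ± 0.341 for NCO (SD, n = 3). It was lowest in the libraries labelled wild type with vehicle, whose stem reads as a knockout, and not in those labelled as knockdown. Groups are therefore called by their stems, no library was reassigned, and every direction below is between stems.

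Mitochondrial DNA is a small circle present in many copies per cell. Both of its strands are copied by the mitochondrial RNA polymerase into long precursors that carry many genes, and tRNAs lie between most of the mRNAs and rRNAs, so that cutting each tRNA free at its ends also releases its neighbours. All mRNAs but MT-ND6 are read from the plus strand, and they encode core subunits of respiratory complexes I, III and IV and of the ATP synthase, complex V. The rRNAs MT-RNR1 (12S) and MT-RNR2 (16S) build the small and the large subunit of the mitochondrial ribosome, and after transcription the steady level of each RNA depends on its own processing and decay.

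Of the tRNA rows, 6 held most of the tRNA signal, while most of the tRNA calls below were of other rows. The sequences of these 6 are shown because they include the called tRNAs around MT-CO1 and MT-CYB. They are from GENCODE release 29 on GRCh38, read 5′ to 3′ on the strand of the tRNA, with T for U and the anticodon in capitals, without the CCA end that is added later.
MT-TY (MT:5826-5891, minus strand): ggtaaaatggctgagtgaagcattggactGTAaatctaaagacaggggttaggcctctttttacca
MT-TC (MT:5761-5826, minus strand): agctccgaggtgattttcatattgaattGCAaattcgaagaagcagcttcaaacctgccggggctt
MT-TS1 (MT:7446-7514, minus strand): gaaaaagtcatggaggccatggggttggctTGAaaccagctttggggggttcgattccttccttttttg
MT-TL1 (MT:3230-3304, plus strand): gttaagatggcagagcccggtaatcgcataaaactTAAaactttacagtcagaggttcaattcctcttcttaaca
MT-TT (MT:15888-15953, plus strand): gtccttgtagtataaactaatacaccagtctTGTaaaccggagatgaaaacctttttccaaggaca
MT-TP (MT:15956-16023, minus strand): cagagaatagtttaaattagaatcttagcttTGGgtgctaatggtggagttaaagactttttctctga
These tRNAs carry tyrosine, cysteine, serine (the UCN codon family), leucine (the UUR codon family), threonine and proline. MT-TY and MT-TC share 1 base, and MT-TT and MT-TP lie side by side on opposite strands.

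Some mRNA rows also share bases, which bears on how reads were split between them. MT-ATP8 and MT-ATP6 overlap by 46 bases at MT 8527 to 8572 on the plus strand, given here with the start codon of MT-ATP6 in capitals, and MT-ND4L and MT-ND4 overlap by 7 bases.
MT-ATP8 and MT-ATP6 overlap: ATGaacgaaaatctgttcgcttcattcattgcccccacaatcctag
Both of these pairs are single transcripts with overlapping reading frames, so the split of their reads between rows is uncertain. The sources used here do not say whether the libraries or the counting kept strand, so RNA from the plus and the minus strand cannot be told apart in any row.

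Values are in FPKM, fragments normalised for transcript length and for the mapped fragments of the library, as the authors deposited them. Without read counts, the sequencing depth is unknown. The FPKM sum per library lay between 493061 and 530097, and libraries of a group correlated at 0.991 to 0.995 across genes (Pearson, log2 scale), where genes are not independent replicates. Of 15 markers of the myeloid line, 13 had a mean of at least 1 FPKM in each group. The 15 summed to 1707 to 1758 in KO1, 2315 to 2482 in NC1 and 1912 to 2067 in NCO, of which AZU1 averaged 775, 1077 and 842. The exceptions were KIT, with means of 0.0351, 0.135 and 0.182 in KO1, NC1 and NCO, and MEIS1, with 0.121, 0.118 and 0.199. Among the erythroid and megakaryocytic markers 0 of 5 had a mean of at least 1 FPKM, with HBA1 and PF4 at 0 in every library. Of 6 lymphoid markers only NKG7 did, while CD3D and CD3E were at 0, and the summed level was 33.6 to 38.4 in KO1, 43.9 to 54.9 in NC1 and 33.3 to 36.0 in NCO. Of 6 stromal and epithelial markers, PECAM1 and DCN did in KO1 and PECAM1, KRT8 and COL1A1 in NC1 and NCO. Their summed level was 23.0 to 23.9, 30.3 to 31.8 and 28.5 to 31.5 in KO1, NC1 and NCO, of which PECAM1 averaged 21.0 ± 0.533, 25.4 ± 1.32 and 26.8 ± 1.45, and KRT8 0.782 ± 0.109, 3.14 ± 0.396 and 1.55 ± 0.186 (SD, n = 3). The part of these differences in the results was not tested. In bulk RNA, fewer cells of a kind and less RNA per cell cannot be told apart.

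The mitochondrial rows together held 14.9% ± 0.433 of the FPKM sum for KO1, 16.5% ± 1.72 for NC1 and 18.1% ± 0.571 for NCO (SD, n = 3). By library the share in percent was 15.3, 14.5 and 14.99 (KO1), 17.6, 17.3 and 14.5 (NC1) and 17.4, 18.2 and 18.5 (NCO). All 3 NCO libraries lay above all 3 KO1 libraries, while the NC1 range reached from inside the KO1 range into that of NCO. The mRNAs made up most of it, at 11.1% ± 0.422 of the library sum for KO1, 11.6% ± 1.48 for NC1 and 12.8% ± 0.497 for NCO. The rRNA share was 1.35, 1.35 and 1.37 (KO1), 2.30, 2.32 and 2.13 (NC1) and 2.34, 2.33 and 2.42 (NCO), and here every NC1 and NCO library lay above every KO1 library. The tRNA share was 2.57, 2.47 and 2.28 (KO1), 2.64, 2.66 and 2.41 (NC1) and 2.77, 2.95 and 2.82 (NCO). The spread between groups was smaller here, but every NCO library lay above every KO1 and NC1 library. These shares are sums over the rows and were not tested.

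**Figure D1:**
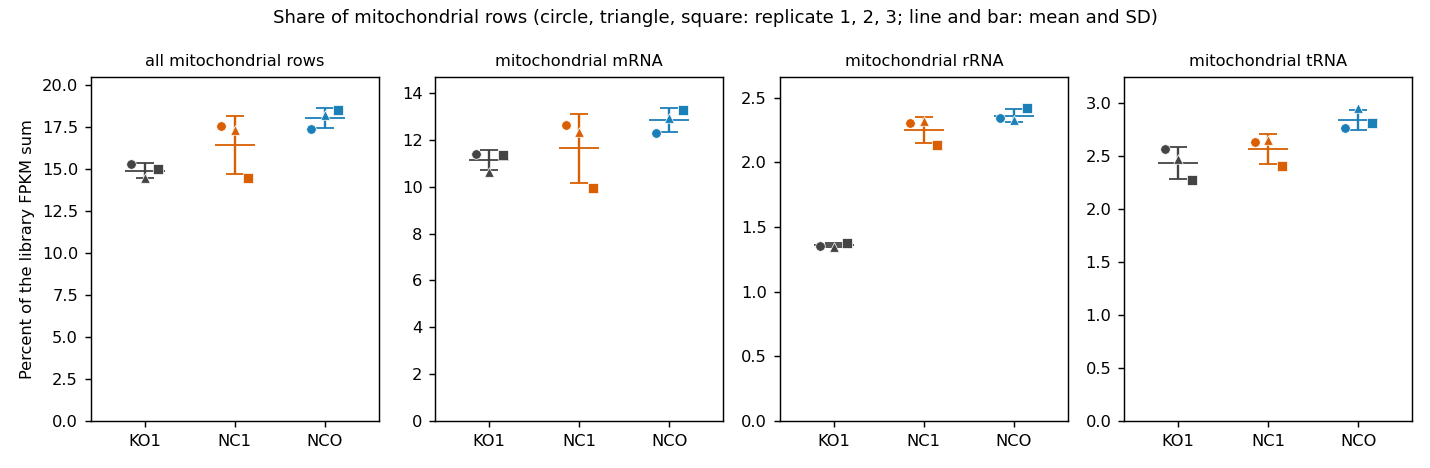
Share of the library FPKM sum, in percent, held by all 37 mitochondrial rows and by the mRNA, rRNA and tRNA rows in each of the 9 libraries; symbols are replicates 1 to 3 of KO1, NC1 and NCO, and lines and bars are group means and SD (n = 3). The rRNA share is 1.36% in KO1 against 2.25% in NC1 and 2.36% in NCO, and NC1 replicate 3 lies low in the mRNA share.

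The relation between the kinds of RNA differed between groups mainly in the rRNAs. The summed FPKM of the 2 rRNA rows as a ratio to that of the 13 mRNA rows was 0.118, 0.127 and 0.121 (KO1), 0.182, 0.188 and 0.215 (NC1) and 0.190, 0.180 and 0.182 (NCO). Every KO1 library was below every other library in this ratio, and the NC1 and NCO ranges overlapped. Since FPKM divides by length, the short tRNA rows weigh heavily in such sums: they held 16.3% ± 1.02 of the mitochondrial FPKM sum in KO1, but 1.38% ± 0.0918 once each FPKM was multiplied by the row's length. On that length-weighted scale, which stands closer to the amount of sequenced RNA, rRNA held 16.6% ± 0.462 in KO1, 23.5% ± 1.46 in NC1 and 22.7% ± 0.513 in NCO. The mRNA share on the same scale was 82.0% ± 0.478, 75.3% ± 1.53 and 76.1% ± 0.500. The labels name total RNA as the extracted molecule and a TruSeq RNA kit. How that kit's selection of RNA treats rRNA and tRNA was not tested, so levels of the 3 kinds describe these libraries and not the cell.

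**Figure D2:**
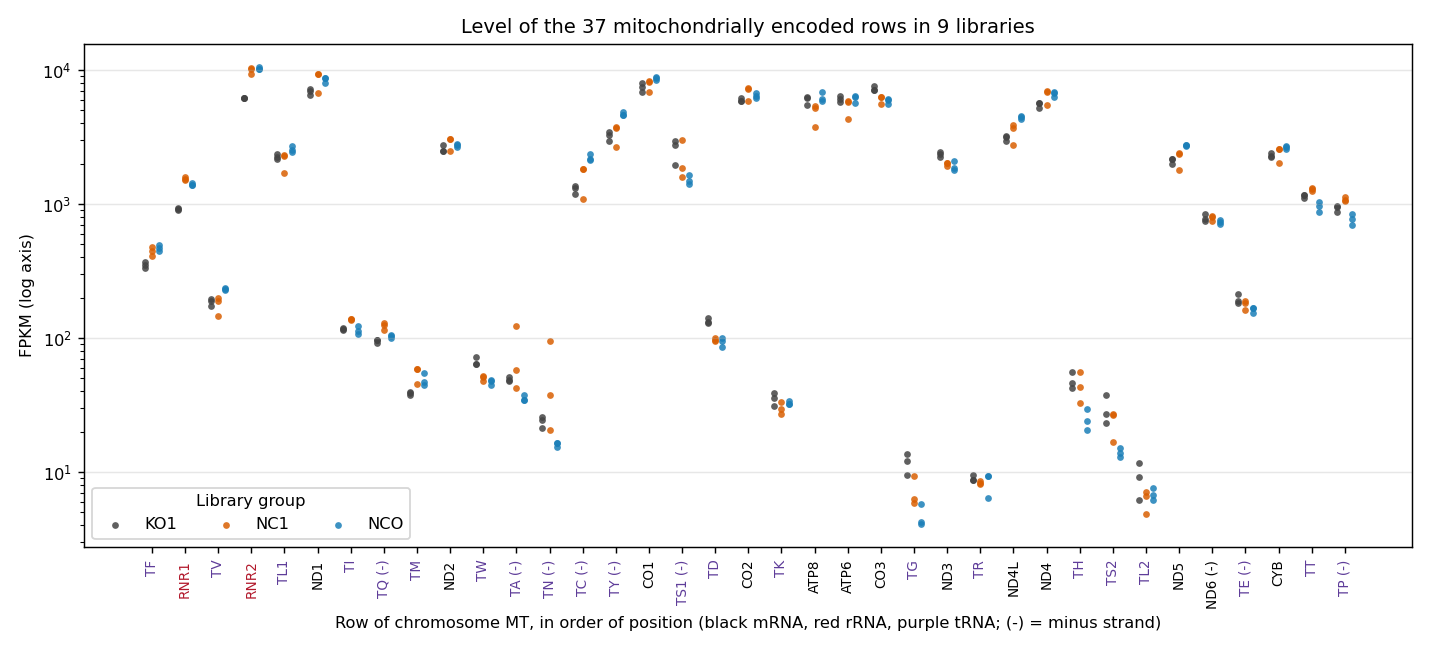
FPKM on a log axis of each of the 37 mitochondrial rows, in order along the chromosome, with 1 point per library coloured by group (KO1, NC1, NCO) and row names coloured by kind of RNA. The means of the mRNAs other than MT-ND6 lie within 3.81-fold of each other, while those of the tRNAs span 514-fold.

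Differences were tested on log2(FPKM + 1) with limma over all 12586 genes that had at least 1 FPKM in at least 3 libraries, a filter that all 37 mitochondrial rows passed. P-values were adjusted over all tested genes by the Benjamini-Hochberg method, with 0.05 as the threshold for a call. The comparisons share libraries: NC1 minus KO1 and NCO minus KO1 both use KO1, so their calls are not separate evidence. Calls are those of this fit to all 9 libraries unless an alternative is named. Values in parentheses below are log2 fold changes on this scale with their standard error (SE). Groups without overlap were common among the 12586 tested genes. Between NC1 and KO1, 4346 genes were higher in every NC1 library and 2760 lower. Between NCO and KO1 the counts for NCO were 4679 and 3020, and between NCO and NC1 they were 2199 and 2118. Lack of overlap therefore does not by itself set a row apart.

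In NC1 minus KO1, 8 mitochondrial rows were called higher and 5 lower, and 24 were not called. Of all genes tested, 47.2% were called in this comparison, 28.9% higher and 18.3% lower, so the members' 13 of 37 is no larger a share than the background. The called rows were both rRNAs, 6 tRNAs higher and 3 lower, and 2 mRNAs lower. The median log2 change of the 37 rows was 0.04, beside 0.06 over all genes tested. In NCO minus NC1, 4 rows were called higher and 6 lower, against a background of 14.7% of genes called, 6.12% higher and 8.62% lower, so the members' 10 of 37 is a larger share, although the count was 4 to 6 under several alternatives. The median over the rows was −0.05, beside 0.01 over all genes. In NCO minus KO1, 12 rows were called higher and 11 lower, against 52.2% of all genes, 32.1% higher and 20.1% lower. In this fit the members' 23 of 37 is a larger share than the background, that called lower (11) likewise, and that called higher (12) is close to it. The median was 0.00, beside 0.08 over all genes, and by kind the calls were 5 mRNAs higher and 2 lower, both rRNAs higher, and 5 tRNAs higher and 9 lower. The larger share did not hold under every alternative. Trimmed-mean scaling gave 18 rows beside 6572 genes in all, a share no larger than the background. Leaving out KO1 replicate 2 gave 17 rows beside 5736 genes. Rows called lower numbered 7 under quantile normalisation or an equal FPKM sum outside chromosome MT. Among rows called in the fit to all 9 libraries, MT-TG in NCO minus KO1 changed at least 2-fold on the log2(FPKM + 1) scale. In the other comparisons 0 called mitochondrial rows did. The change of MT-TN in NCO minus NC1 was larger than that of MT-TG but was not called (−1.33, SE 0.50, adjusted p = 0.130). Rows were called in both directions in each of the 3 comparisons.

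How many mRNAs were called depended on how libraries were scaled. In NCO minus KO1, 5 mRNAs were called higher and 2 lower on the deposited FPKM scale, 8 and 2 with an equal FPKM sum outside chromosome MT, 5 and 2 under quantile normalisation, and 1 and 3 under trimmed-mean scaling. In NC1 minus KO1 the counts were 0 and 2 as deposited, 3 and 2, 4 and 2, and 0 and 3 under the same scalings. The counts over all genes moved with the scaling as well. In NCO minus KO1 they went from 4041 higher and 2527 lower to 5800 and 1622, 3100 and 3060, and 3194 and 3378 in that order, and in NC1 minus KO1 from 3637 and 2300 to 4529 and 1743, 2785 and 3059, and 2974 and 3112. The equal sum outside chromosome MT moved the median of all genes in NCO minus KO1 from 0.08 to 0.19, and trimmed-mean scaling set it to 0.00. Both rRNAs were called higher against KO1 in each of these. In all, 18 alternatives were tried, each changing 1 choice of filter, pseudocount, scaling, moderation or samples fitted, adding a replicate block, or leaving out 1 library. Among them, the equal mitochondrial mRNA sum was added after the data were seen and is built from the members. By construction it removes a change shared by all the mRNA rows. All 18 kept the call of 6 of the 13 called rows in NC1 minus KO1, 2 of 10 in NCO minus NC1 and 12 of 23 in NCO minus KO1.

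**Figure D3:**
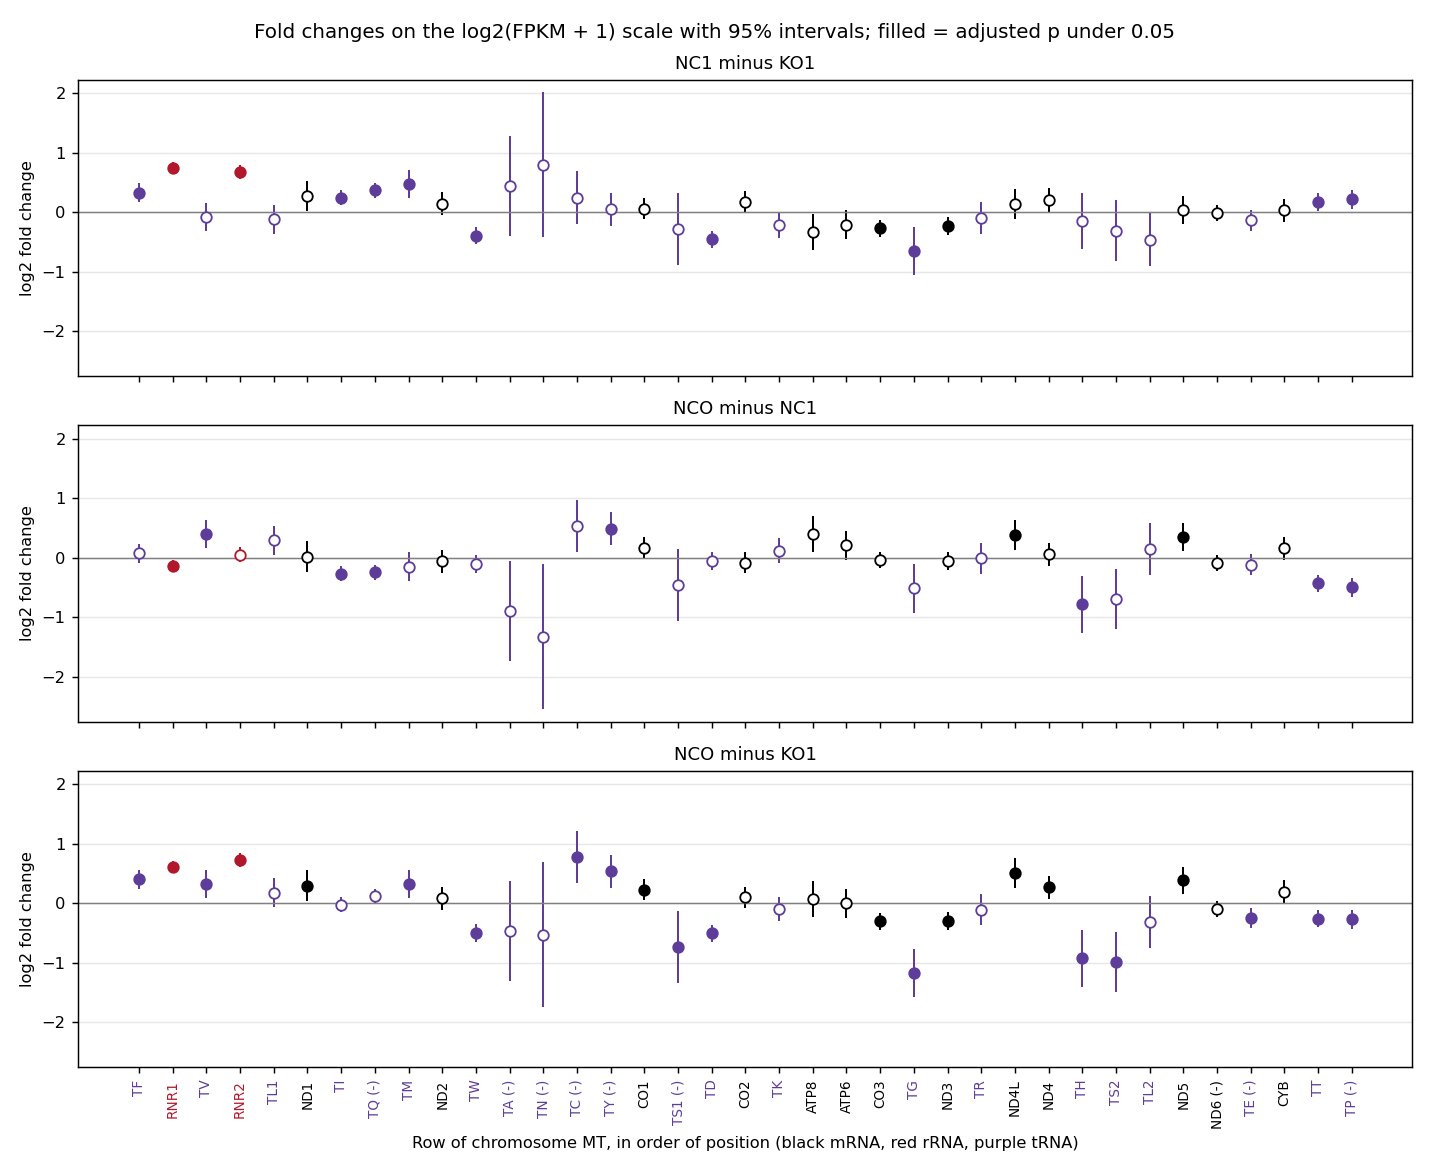
Log2 fold change on the log2(FPKM + 1) scale with its 95% confidence interval for each of the 37 rows, with a panel for each of the 3 comparisons; filled points are rows called at an adjusted p under 0.05. Both rRNAs lie above 0 against KO1, while mRNAs and tRNAs fall on both sides of it.

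The rRNAs were the members with the smallest adjusted p against KO1. MT-RNR1 (MT 648 to 1601, plus strand), the RNA of the small ribosomal subunit, stood at 931, 916 and 905 FPKM (KO1), 1533, 1578 and 1519 (NC1) and 1395, 1388 and 1429 (NCO). The 3 groups did not overlap, with KO1 lowest and NC1 highest. It rose 1.68-fold in NC1 over KO1 (log2 fold change 0.75, SE 0.039, adjusted p = 6.27e-08) and 1.53-fold in NCO over KO1 (0.61, SE 0.039, adjusted p = 3.98e-07). NCO was lower than NC1 by a small margin (−0.14, SE 0.039, adjusted p = 0.0381), a call lost without KO1 replicate 1 or 2, NC1 replicate 1 or 2 or NCO replicate 1, 2 or 3 (adjusted p of 0.0572 to 0.129), and made under 4 of 18 alternatives in all.

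MT-RNR2 (MT 1671 to 3229, plus strand), the RNA of the large subunit, stood at 6222, 6201 and 6179 FPKM (KO1), 10100.0, 10314 and 9309 (NC1) and 10137, 10159 and 10542 (NCO). All KO1 libraries were below all others, and NC1 and NCO overlapped. It rose 1.60-fold in NC1 (0.67, SE 0.047, adjusted p = 8.33e-07) and 1.66-fold in NCO (0.73, SE 0.047, adjusted p = 5.18e-07) over KO1. Between NCO and NC1 it was 0.054, with a 95% interval of −0.050 to 0.16 and an adjusted p of 0.468. Both rRNAs kept their call against KO1 under all 18 alternatives. With the 13 mRNA rows set to an equal sum in every library, a scaling added after the data were seen, the change against KO1 was 0.74 for MT-RNR1 and 0.66 for MT-RNR2 in NC1, and 0.49 and 0.61 in NCO.

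The ratio of MT-RNR2 to MT-RNR1, rows that are neighbours on 1 precursor, was 6.68, 6.77 and 6.83 (KO1), 6.59, 6.53 and 6.13 (NC1) and 7.27, 7.32 and 7.38 (NCO). It was highest in NCO and lowest in NC1, with no overlap between groups. MT-ND1 is the next mRNA downstream of MT-RNR2, with MT-TL1 between them. The ratio of MT-RNR2 to MT-ND1 was 0.865, 0.946 and 0.883 (KO1), 1.08, 1.11 and 1.38 (NC1) and 1.27, 1.16 and 1.21 (NCO), below 1 in every KO1 library and above 1 in every other.

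**Figure D4:**
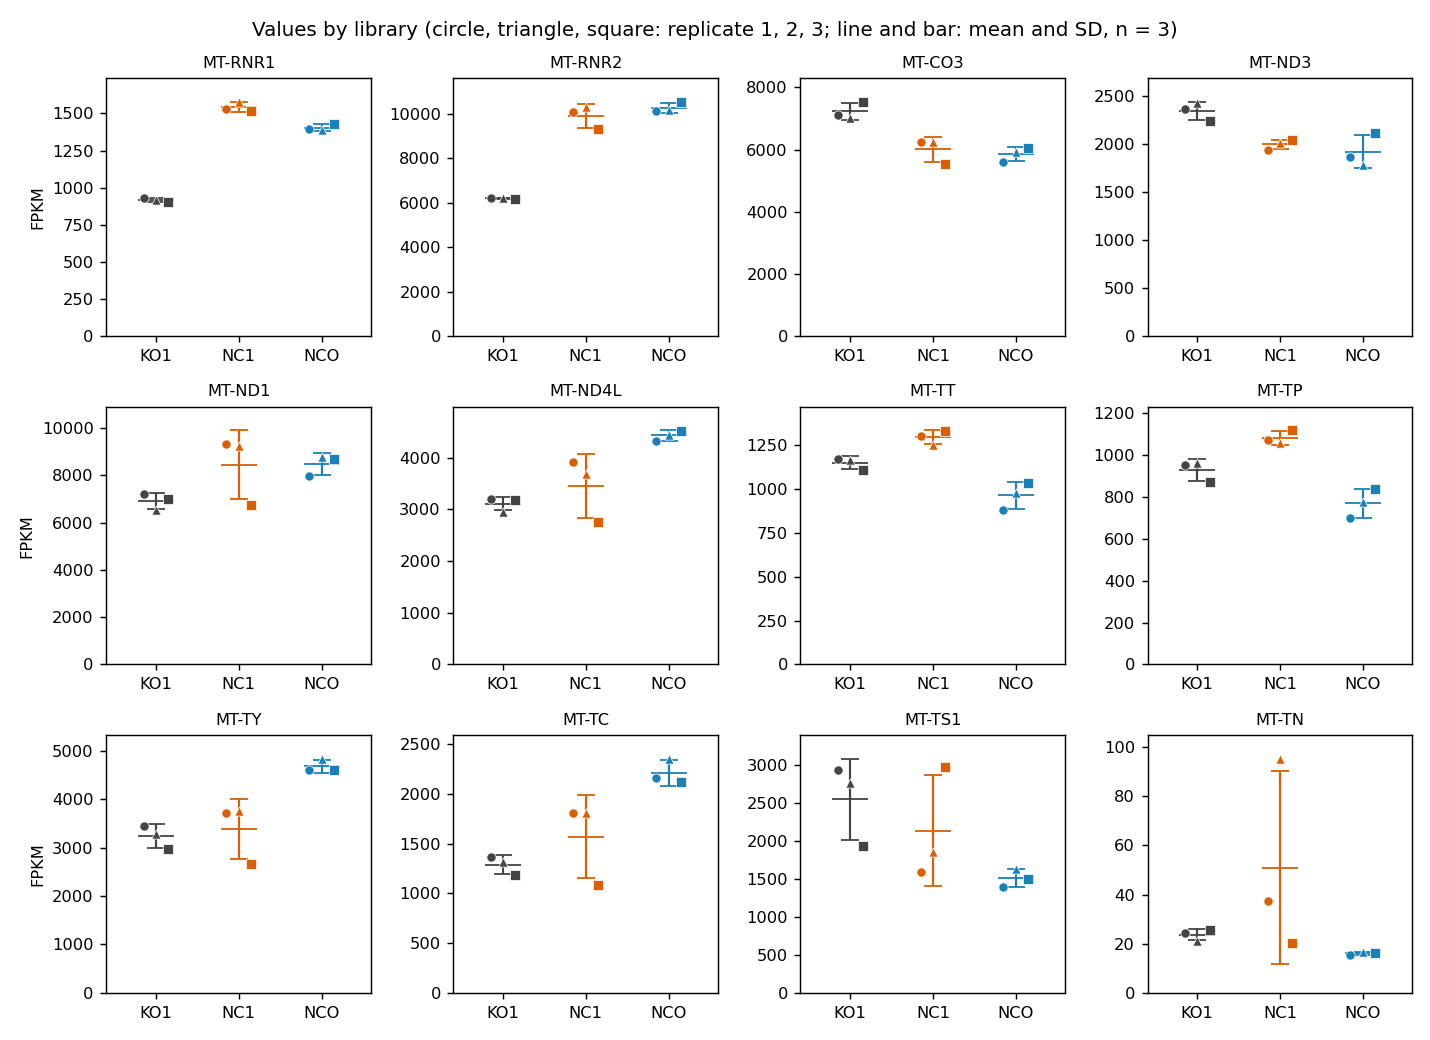
FPKM of selected mitochondrial rows in each library, 1 panel per row, with symbols for replicates 1 to 3 of KO1, NC1 and NCO and a line and bar at the group mean and SD (n = 3). MT-RNR1 and MT-RNR2 separate KO1 from the rest, MT-CO3 and MT-ND3 lie lower outside KO1, and MT-ND4L is highest in NCO.

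Among the mRNAs, those of complex I, the NADH dehydrogenase that passes electrons to ubiquinone, went both ways. MT-ND1 (MT 3307 to 4262, plus strand) stood at 7191, 6554 and 6999 FPKM (KO1), 9311, 9261 and 6753 (NC1) and 7952, 8773 and 8702 (NCO). KO1 lay below NCO in every library, and NC1 replicate 3 fell among the KO1 values. The log2 fold change was 0.27 in NC1 minus KO1 (adjusted p = 0.0600) and 0.29 in NCO minus KO1 (SE 0.11, adjusted p = 0.0425), a call lost without KO1 replicate 1, 2 or 3 or NCO replicate 2 or 3 (adjusted p of 0.0635 to 0.123), and made under 7 of 18 alternatives in all. MT-ND2 (MT 4470 to 5511, plus strand) stood at 2775, 2483 and 2498 FPKM (KO1), 3067, 3066 and 2474 (NC1) and 2642, 2764 and 2816 (NCO). It was not called in any comparison, with groups that overlapped. Under alternatives it was called higher in NC1 than in KO1 without NC1 replicate 3, or under quantile normalisation (adjusted p of 0.00250 to 0.00277), and in NCO than in KO1 under quantile normalisation or an equal sum outside chromosome MT (adjusted p of 0.0197 to 0.0480).

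MT-ND3 (MT 10059 to 10404, plus strand), a small membrane subunit, stood at 2359, 2424 and 2240.1 FPKM (KO1), 1936, 2005 and 2035 (NC1) and 1858, 1779 and 2109 (NCO). Every KO1 library was above every NC1 and NCO library. It fell in NC1 (−0.23, SE 0.062, adjusted p = 0.00945) and in NCO (−0.29, SE 0.062, adjusted p = 0.00221) against KO1. The NCO call held under all 18 alternatives, and that in NC1 was lost under quantile normalisation or an equal mitochondrial mRNA sum (adjusted p of 0.118 to 0.176). NCO minus NC1 was −0.060 (adjusted p = 0.543).

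MT-ND4L (MT 10470 to 10766, plus strand) and MT-ND4 (MT 10760 to 12137, plus strand) are read from the same mRNA. MT-ND4L stood at 3195, 2957 and 3175 FPKM (KO1), 3913, 3683 and 2751 (NC1) and 4324, 4440.5 and 4520.1 (NCO), with NCO above all other libraries and NC1 replicate 3 the lowest of all. It rose in NCO over KO1 (0.51, SE 0.11, adjusted p = 0.00251), under all 18 alternatives. It also rose in NCO over NC1 (0.38, SE 0.11, adjusted p = 0.0403), a call lost without KO1 replicate 1, 2 or 3, NC1 replicate 2 or NCO replicate 1, 2 or 3 (adjusted p of 0.0534 to 0.104), and made under 4 of 18 alternatives in all. MT-ND4 stood at 5714, 5243 and 5656 FPKM (KO1), 6975, 6828 and 5489 (NC1) and 6319, 6751 and 6886 (NCO). It was higher in NCO than in KO1 (0.26, SE 0.083, adjusted p = 0.0198), a call lost without KO1 replicate 2 or NCO replicate 2 or 3 and under no filter on low values, trimmed-mean scaling or an equal mitochondrial mRNA sum (adjusted p of 0.0580 to 0.345). The ratio of MT-ND4L to MT-ND4 was 0.559, 0.564 and 0.561 (KO1), 0.561, 0.539 and 0.501 (NC1) and 0.684, 0.658 and 0.656 (NCO), highest in the NCO libraries.

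MT-ND5 (MT 12337 to 14148, plus strand), the largest mitochondrially encoded subunit, stood at 2157, 1998 and 2172 FPKM (KO1), 2419.9, 2360.3 and 1779.5 (NC1) and 2712, 2775 and 2757 (NCO). The NCO libraries were above all others, and NC1 straddled KO1. It rose in NCO over KO1 (0.38, SE 0.097, adjusted p = 0.00750), a call lost under trimmed-mean scaling or an equal mitochondrial mRNA sum (adjusted p of 0.0505 to 0.0721). It also rose over NC1 (0.34, SE 0.097, adjusted p = 0.0403), with a call lost without KO1 replicate 1, 2 or 3 or NCO replicate 1, 2 or 3 (adjusted p of 0.0518 to 0.107), and made under 5 of 18 alternatives in all. MT-ND6 (MT 14149 to 14673, minus strand), the only mRNA of the minus strand, stood at 776, 750.1 and 835 FPKM (KO1), 809.7, 795 and 747 (NC1) and 704, 763 and 738 (NCO). It was not called in any comparison, but was called lower in NCO than in KO1 under trimmed-mean scaling (adjusted p = 0.0334). As a percentage of the mean plus-strand mRNA level it was 15.6, 16.2 and 17.4 (KO1), 15.4, 15.3 and 18.0 (NC1) and 14.1, 14.4 and 13.6 (NCO), lowest in the 3 NCO libraries.

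Complex III is represented by MT-CYB (MT 14747 to 15887, plus strand), cytochrome b, at 2397, 2248 and 2294 FPKM (KO1), 2561, 2552 and 2026 (NC1) and 2576, 2658 and 2693 (NCO). It was not called in any comparison. NCO minus KO1 was 0.19 (adjusted p = 0.0602), with a 95% interval of 0.019 to 0.37, and the row was called higher without NC1 replicate 3, or under an equal sum outside chromosome MT or a fit of only the groups compared (adjusted p of 0.000881 to 0.00818).

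The complex IV rows, subunits of cytochrome c oxidase, differed among themselves. MT-CO3 (MT 9207 to 9990, plus strand) stood at 7121, 7028 and 7536 FPKM (KO1), 6252, 6246 and 5548 (NC1) and 5598, 5929 and 6038 (NCO), and every KO1 library was above every other. It fell in NC1 (−0.27, SE 0.057, adjusted p = 0.00276) and in NCO (−0.30, SE 0.057, adjusted p = 0.00109) against KO1. The NCO call held under all 18 alternatives, and that in NC1 was lost under an equal mitochondrial mRNA sum (adjusted p = 0.0531). NCO minus NC1 was −0.037 (adjusted p = 0.696). MT-CO1 (MT 5904 to 7445, plus strand), the catalytic subunit, stood at 7938, 7399 and 6874 FPKM (KO1), 8087, 8267 and 6886 (NC1) and 8354, 8883 and 8707 (NCO). The call in NCO minus KO1 (0.23, SE 0.073, adjusted p = 0.0230) was lost without KO1 replicate 2 or 3 or NCO replicate 2 or 3 and under no filter on low values, trimmed-mean scaling or an equal mitochondrial mRNA sum (adjusted p of 0.0541 to 0.510). Under quantile normalisation its sign turned, to −0.093 (adjusted p = 0.243) in NCO minus KO1 and to −0.17 (adjusted p = 0.0450) in NC1 minus KO1. MT-CO2 (MT 7586 to 8269, plus strand) stood at 6133, 5901 and 5858 FPKM (KO1), 7215, 7271 and 5880.5 (NC1) and 6121, 6353 and 6688 (NCO). It was not called in any comparison. Under alternatives it was called higher in NC1 than in KO1 without NC1 replicate 3, or under quantile normalisation or an equal sum outside chromosome MT (adjusted p of 0.000365 to 0.0266), and in NCO than in KO1 without NC1 replicate 3, or under quantile normalisation or an equal sum outside chromosome MT (adjusted p of 0.00893 to 0.0444). It was called lower in NCO than in NC1 without NC1 replicate 3 (adjusted p = 0.0199), where the log2 fold change went from −0.082 to −0.18.

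The complex V rows MT-ATP8 (MT 8366 to 8572, plus strand) and MT-ATP6 (MT 8527 to 9207, plus strand) encode subunits of the membrane part of the ATP synthase. MT-ATP8 stood at 6251, 5495 and 6195 FPKM (KO1), 5404, 5234 and 3740.1 (NC1) and 5869, 6099.7 and 6834 (NCO), and all 3 NC1 libraries were below all others. The log2 fold change was −0.34 in NC1 minus KO1 (adjusted p = 0.0532) and 0.40 in NCO minus NC1 (adjusted p = 0.0627). The NC1 minus KO1 difference was called without NC1 replicate 1 or 2, or under trimmed-mean scaling or an equal mitochondrial mRNA sum (adjusted p of 0.0145 to 0.0417), and that of NCO minus NC1 without NC1 replicate 1 (adjusted p = 0.0437). MT-ATP6 stood at 6420.1, 5764 and 6108 FPKM (KO1), 5909, 5729 and 4335 (NC1) and 5682, 6273 and 6352 (NCO). It was not called. The ratio of MT-ATP8 to MT-ATP6 was 0.974, 0.953 and 1.01 (KO1), 0.915, 0.914 and 0.863 (NC1) and 1.03, 0.972 and 1.08 (NCO), lowest in the NC1 libraries. MT-CO3 follows MT-ATP6 on the same precursor with no tRNA between them, and its ratio to MT-ATP6 was 1.11, 1.22 and 1.23 (KO1), 1.06, 1.09 and 1.28 (NC1) and 0.985, 0.945 and 0.951 (NCO).

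The makeup of the mRNA pool differed between groups. Complex I held 40.1% ± 0.255 of the mRNA FPKM sum for KO1, 44.1% ± 0.433 for NC1 and 43.6% ± 0.192 for NCO. Complex V held 20.7% ± 0.575, 17.01% ± 0.893 and 19.4% ± 0.524, and complex IV 35.3% ± 0.756, 34.8% ± 1.33 and 32.9% ± 0.267. Complex III, which is MT-CYB alone, held 3.96% ± 0.0361, 4.02% ± 0.0107 and 4.16% ± 0.0779. MT-CO3 went from 12.4% ± 0.562 of the sum in KO1 to 10.2% ± 0.676 in NC1 and 9.21% ± 0.0317 in NCO, and MT-ND1 from 11.8% ± 0.169 to 14.2% ± 0.704 and 13.3% ± 0.294. Shares of a sum depend on each other, and no test was made of them.

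The number of mRNAs called higher in NC1 minus KO1 depended on 1 library as well as on the scaling. NC1 replicate 3 was the lowest of its group in 12 of the 13 mRNA rows, and the lowest of all 9 libraries in 7. Without it, 8 mRNAs were called higher in NC1 than in KO1 in place of 0, and the same 2 lower, while the calls over all genes went from 3637 higher and 2300 lower to 3226 and 2375. The 8 were MT-ND1 (log2 fold change 0.43), MT-ND2 (0.25), MT-CO1 (0.15), MT-CO2 (0.28), MT-ND4 (0.32), MT-ND4L (0.29), MT-ND5 (0.18) and MT-CYB (0.14). The NC1 minus KO1 difference in the mitochondrial share of the FPKM sum was 1.54 percentage points with this library and 2.53 without it, and that of NCO minus NC1 was 1.60 and 0.607. The rRNA calls did not depend on it, since MT-RNR1 changed by 0.76 and MT-RNR2 by 0.72 in its absence. No label sets this library apart from the other 2 of its group.

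The tRNA rows ranged from 7.32 FPKM for MT-TL2 to 3762 for MT-TY in their mean over the 9 libraries. The 6 highest, MT-TY, MT-TL1, MT-TS1, MT-TC, MT-TT and MT-TP, held 87.7 to 90.4% of the tRNA sum in each library, 6 rows lay between 100 and 500, 7 between 10 and 100, and 3 under 10. MT-TY, MT-TC and MT-TS1 flank MT-CO1 on the opposite strand, where MT-TS1 abuts it and MT-TY lies 12 bases away. How fragments that run across the ends of such short rows were assigned was not tested.

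MT-TY, the tyrosine tRNA, stood at 3448, 3284 and 2965 FPKM (KO1), 3711, 3754 and 2661 (NC1) and 4596, 4833 and 4608 (NCO), with every NCO library above every other library. It rose in NCO over KO1 (0.54, SE 0.12, adjusted p = 0.00337), under all 18 alternatives. It rose over NC1 (0.49, SE 0.12, adjusted p = 0.0219), a call lost without NCO replicate 1 or 2 and under no filter on low values (adjusted p of 0.0573 to 0.0867). MT-TC, the cysteine tRNA beside it, stood at 1368, 1316 and 1184 FPKM (KO1), 1811, 1810.1 and 1088 (NC1) and 2160.1, 2353 and 2115 (NCO). It likewise rose in NCO over KO1 (0.78, SE 0.18, adjusted p = 0.00819) under all 18 alternatives. NC1 minus KO1 was called higher for MT-TY without NC1 replicate 3 (adjusted p = 0.0117) and for MT-TC without NC1 replicate 3 (adjusted p = 0.000149), and NCO minus NC1 for MT-TC without NC1 replicate 3, or under an equal mitochondrial mRNA sum (adjusted p of 0.0176 to 0.0281). At the other end of MT-CO1, MT-TS1 stood at 2941, 2774 and 1939.6 FPKM (KO1), 1589.6, 1858 and 2975 (NC1) and 1400.1, 1635 and 1496 (NCO). It went the other way, lower in NCO than in KO1 (−0.74, SE 0.25, adjusted p = 0.0420), and the call was lost without KO1 replicate 1 or 2, NC1 replicate 2 or NCO replicate 1, 2 or 3 (adjusted p of 0.0582 to 0.123), and made under 7 of 18 alternatives in all. Within NC1 its value in replicate 3 was above the KO1 range and the values of the other replicates were below it. The level of MT-TY relative to MT-CO1 was 0.434, 0.444 and 0.431 (KO1), 0.459, 0.454 and 0.386 (NC1) and 0.550, 0.544 and 0.529 (NCO). That of MT-TS1 was 0.370, 0.375 and 0.282 (KO1), 0.197, 0.225 and 0.432 (NC1) and 0.168, 0.184 and 0.172 (NCO).

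The other tRNAs of this cluster, MT-TA (alanine) and MT-TN (asparagine), varied most within NC1. MT-TA stood at 47.6, 48.9 and 50.9 FPKM (KO1), 57.9, 122 and 42.1 (NC1) and 34.2, 34.6 and 37.6 (NCO). MT-TN stood at 24.3, 21.2 and 25.5 FPKM (KO1), 37.3, 95.2 and 20.4 (NC1) and 15.4, 16.6 and 16.4 (NCO), so that NC1 replicate 2 held the highest value of both. Neither was called in any comparison. Without NC1 replicate 2, NCO minus KO1 was −0.46 for MT-TA (adjusted p = 0.00351) and −0.52 for MT-TN (adjusted p = 0.0431). NCO minus NC1 was called lower for MT-TA without NC1 replicate 2 or NC1 replicate 3 (adjusted p of 0.0323 to 0.0421) and for MT-TN without NC1 replicate 3 (adjusted p = 0.0286). With KO1 and NCO fitted alone, NCO was called lower than KO1 for both (adjusted p = 7.18e-05 for MT-TA and 0.000235 for MT-TN), and without NC1 replicate 3 MT-TN was called higher in NC1 than in KO1 (adjusted p = 0.0299).

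MT-TT and MT-TP, which carry threonine and proline, lie next to each other between MT-CYB and the control region and moved alike. MT-TT stood at 1171, 1165 and 1106 FPKM (KO1), 1303, 1249 and 1327 (NC1) and 878, 974 and 1034 (NCO). MT-TP stood at 953, 964 and 871 FPKM (KO1), 1072, 1058 and 1119 (NC1) and 699, 775 and 839 (NCO). In both rows the 3 groups did not overlap, with NC1 highest and NCO lowest. NCO was lower than NC1 in MT-TT (−0.43, SE 0.059, adjusted p = 0.00170) and in MT-TP (−0.49, SE 0.066, adjusted p = 0.00161), the members whose call in that comparison held under all 18 alternatives. NCO was also lower than KO1 in MT-TT (−0.26, adjusted p = 0.00365) and in MT-TP (−0.27, adjusted p = 0.00503). Those calls were lost under quantile normalisation and under an equal sum outside chromosome MT (adjusted p of 0.0966 to 0.0975 for MT-TT and 0.0848 to 0.771 for MT-TP). NC1 was higher than KO1 in MT-TT (0.17, adjusted p = 0.0318), a call lost without KO1 replicate 1, 2 or 3 or NC1 replicate 1 or 3 (adjusted p of 0.0548 to 0.103), and made under 9 of 18 alternatives in all. It was higher in MT-TP as well (0.22, adjusted p = 0.0166), a call lost without KO1 replicate 3 and under no filter on low values, trimmed-mean scaling or an equal mitochondrial mRNA sum (adjusted p of 0.0585 to 0.200). Their ratio, MT-TT to MT-TP, stayed between 1.18 and 1.27 in all 9 libraries.

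Around the rRNAs, MT-TF (phenylalanine), MT-TV (valine) and MT-TL1 (leucine) lie at the ends of MT-RNR1 and MT-RNR2 on the same strand. MT-TF stood at 335, 371 and 353 FPKM (KO1), 479, 444 and 409 (NC1) and 493, 442 and 469 (NCO). It rose in NC1 (0.33, SE 0.064, adjusted p = 0.00161) and in NCO (0.40, SE 0.064, adjusted p = 0.000364) against KO1. The first call was lost under quantile normalisation (adjusted p = 0.0606), and the other under an equal mitochondrial mRNA sum (adjusted p = 0.0668). MT-TV stood at 189, 173 and 197 FPKM (KO1), 199, 189 and 146 (NC1) and 229, 233 and 235 (NCO). It was higher in NCO than in NC1 (0.40, adjusted p = 0.0234), a call lost without NCO replicate 1, 2 or 3 and under no filter on low values or an equal mitochondrial mRNA sum (adjusted p of 0.0594 to 0.164). It was higher in NCO than in KO1 (0.32, adjusted p = 0.0187), a call lost without KO1 replicate 2 and under no filter on low values, trimmed-mean scaling or an equal mitochondrial mRNA sum (adjusted p of 0.0695 to 0.208). MT-TL1 stood at 2359, 2177 and 2222 FPKM (KO1), 2303, 2296 and 1698 (NC1) and 2514, 2691 and 2431 (NCO). It was not called in any comparison, but was called higher in NCO than in KO1 without NC1 replicate 3, or under quantile normalisation, an equal sum outside chromosome MT or a fit of only the groups compared (adjusted p of 0.00644 to 0.0489). It went from 36.3% of the MT-RNR2 level in KO1 to 21.1% in NC1 and 24.8% in NCO.

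Between MT-ND1 and MT-ND2, MT-TI (isoleucine), MT-TQ (glutamine) and MT-TM (methionine) were each higher in NC1 than in KO1. MT-TQ stood at 92.3, 96.0 and 96.6 FPKM (KO1), 125, 128 and 115 (NC1) and 104, 105 and 101 (NCO). It changed by 0.37 (SE 0.048, adjusted p = 0.000102). MT-TM stood at 39.7, 37.2 and 38.7 FPKM (KO1), 58.9, 58.8 and 45.3 (NC1) and 54.4, 47.2 and 44.6 (NCO). It changed by 0.47 (adjusted p = 0.00281). The calls of MT-TQ and MT-TM in NC1 minus KO1 held under all 18 alternatives. MT-TI stood at 118, 116 and 114 FPKM (KO1), 137, 138 and 139 (NC1) and 108, 122 and 114 (NCO), with NC1 above both other groups and no overlap, and changed by 0.24 (adjusted p = 0.00166), a call lost under an equal mitochondrial mRNA sum (adjusted p = 0.157). In NCO, MT-TI (−0.27, adjusted p = 0.00594) and MT-TQ (−0.25, adjusted p = 0.00846) were lower than in NC1, calls lost under quantile normalisation or an equal mitochondrial mRNA sum (adjusted p of 0.0606 to 0.112) for MT-TI. For MT-TQ the call was lost under quantile normalisation or an equal mitochondrial mRNA sum (adjusted p of 0.0751 to 0.194). MT-TM was higher in NCO than in KO1 (0.33, adjusted p = 0.0187), a call lost without KO1 replicate 2 or NCO replicate 1 and under no filter on low values, trimmed-mean scaling or an equal mitochondrial mRNA sum (adjusted p of 0.0580 to 0.215), and was called lower in NCO than in NC1 without NC1 replicate 3 (adjusted p = 0.0360). Under alternatives MT-TQ was called higher in NCO than in KO1 without NC1 replicate 2 or 3, or under quantile normalisation, an equal sum outside chromosome MT or a fit of only the groups compared (adjusted p of 0.00189 to 0.0488).

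A further group of tRNAs on the plus strand was lower outside KO1. MT-TD, the aspartate tRNA between MT-TS1 and MT-CO2, stood at 141, 129 and 131 FPKM (KO1), 100.003, 97.2 and 94.3 (NC1) and 85.7, 99.6 and 95.8 (NCO), with every KO1 library above every other. It fell in NC1 (−0.45, SE 0.059, adjusted p = 9.61e-05) and in NCO (−0.51, SE 0.059, adjusted p = 4.02e-05). MT-TW, the tryptophan tRNA after MT-ND2, stood at 64.0, 71.7 and 64.4 FPKM (KO1), 48.1, 51.1 and 52.5 (NC1) and 44.4, 47.7 and 48.7 (NCO). It fell in NC1 (−0.39, adjusted p = 0.000263) and in NCO (−0.50, adjusted p = 4.50e-05). The calls of MT-TD and MT-TW against KO1 held under all 18 alternatives. MT-TG, the glycine tRNA between MT-CO3 and MT-ND3, stood at 9.56, 12.2 and 13.7 FPKM (KO1), 6.30, 5.91 and 9.36 (NC1) and 5.74, 4.23 and 4.08 (NCO). It fell in NC1 (−0.65, SE 0.17, adjusted p = 0.0112), a call lost under an equal mitochondrial mRNA sum (adjusted p = 0.0769), and in NCO (−1.17, SE 0.17, adjusted p = 0.000347). NCO minus NC1 was called lower under quantile normalisation (adjusted p = 0.0424). Its mRNA neighbours MT-CO3 and MT-ND3 also fell in both groups.

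After MT-ND4, MT-TH (histidine) stood at 46.1, 42.1 and 55.4 FPKM (KO1), 42.8, 32.9 and 55.8 (NC1) and 20.8, 24.2 and 29.5 (NCO). It fell in NCO against KO1 (−0.92, SE 0.20, adjusted p = 0.00525). It also fell against NC1 (−0.78, SE 0.20, adjusted p = 0.0378), a call lost without KO1 replicate 1 or 2, NC1 replicate 1 or 3 or NCO replicate 1 or 2 and under no filter on low values, an equal mitochondrial mRNA sum or a fit of only the groups compared (adjusted p of 0.0508 to 0.110). MT-TS2, the serine tRNA of the AGY codon family, stood at 23.1, 26.9 and 37.8 FPKM (KO1), 26.7, 16.8 and 27.0 (NC1) and 12.9, 13.8 and 15.2 (NCO). It fell in NCO against KO1 (−0.99, SE 0.21, adjusted p = 0.00480), and was called lower than in NC1 without KO1 replicate 3 or NC1 replicate 2, or under a fit of only the groups compared (adjusted p of 0.0156 to 0.0458). MT-TE (glutamate), on the minus strand beside MT-ND6, stood at 182, 188 and 214 FPKM (KO1), 188, 183 and 161 (NC1) and 155, 167 and 168 (NCO). It was lower in NCO than in KO1 (−0.25, SE 0.072, adjusted p = 0.0131), a call lost without KO1 replicate 3 or NCO replicate 1 and under no filter on low values, quantile normalisation or an equal sum outside chromosome MT (adjusted p of 0.0533 to 0.341). MT-TL2, the leucine tRNA of the CUN codon family that follows MT-TS2, stood at 6.16, 9.18 and 11.6 FPKM (KO1), 7.05, 4.83 and 6.57 (NC1) and 6.22, 6.75 and 7.55 (NCO). MT-TK (lysine) stood at 38.9, 30.8 and 35.8 FPKM (KO1), 33.4, 29.6 and 27.3 (NC1) and 32.2, 32.4 and 33.7 (NCO). MT-TR (arginine) stood at 9.43, 8.77 and 8.78 FPKM (KO1), 8.57, 8.35 and 8.11 (NC1) and 9.38, 6.42 and 9.32 (NCO). None of these last 3 was called in any comparison. Under alternatives MT-TL2 was called lower in NC1 than in KO1 without KO1 replicate 1, or under trimmed-mean scaling or quantile normalisation (adjusted p of 0.00442 to 0.0485), and in NCO than in KO1 without KO1 replicate 1 (adjusted p = 0.0133). MT-TK was called lower in NC1 than in KO1 without KO1 replicate 2 or NC1 replicate 1, or under trimmed-mean scaling (adjusted p of 0.0121 to 0.0289). At values of a few FPKM the pseudocount of 1 shrinks the fold change of MT-TG, MT-TL2 and MT-TR.

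Sequences in the nuclear genome that were copied from mitochondrial DNA can take reads from the mitochondrial rows. By symbol, 408 such rows were in the table, 57 of them above 0 in a library, and together they held 0.258 to 0.401% of the library FPKM sum. MTND2P28, at position 629640 to 630683 of chromosome 1 in the table, is 98.4% identical to MT-ND2 with 17 differing bases and an identical run of 266 bases. It stood at 827, 765 and 781 FPKM (KO1), 1049, 1017 and 739 (NC1) and 996, 1046 and 1025 (NCO), or 29.8 to 37.8% of the level of MT-ND2, with the 3 NCO libraries above all others in that percentage. MTATP6P1, at 633696 to 634376 of the same chromosome, is 98.5% identical to MT-ATP6 and stood at 815, 737 and 761 FPKM (KO1), 828, 812 and 547 (NC1) and 809, 925 and 899 (NCO), 12.5 to 14.7% of MT-ATP6. The third by level, MTCO1P12, stood at 16.99, 16.7 and 13.3 FPKM (KO1), 14.3, 12.4 and 17.9 (NC1) and 10.4, 11.8 and 12.2 (NCO). MTND2P28 was called in NCO minus KO1 (log2 fold change 0.37, adjusted p = 0.0163), a comparison in which MT-ND2 was 0.086 (adjusted p = 0.390), and MTATP6P1 was not called. With runs of identical bases this long, reads of a row and its copy cannot be told apart in the table, so MT-ND2, MT-ATP6 and the rows of their copies are uncertain.

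**Figure D5:**
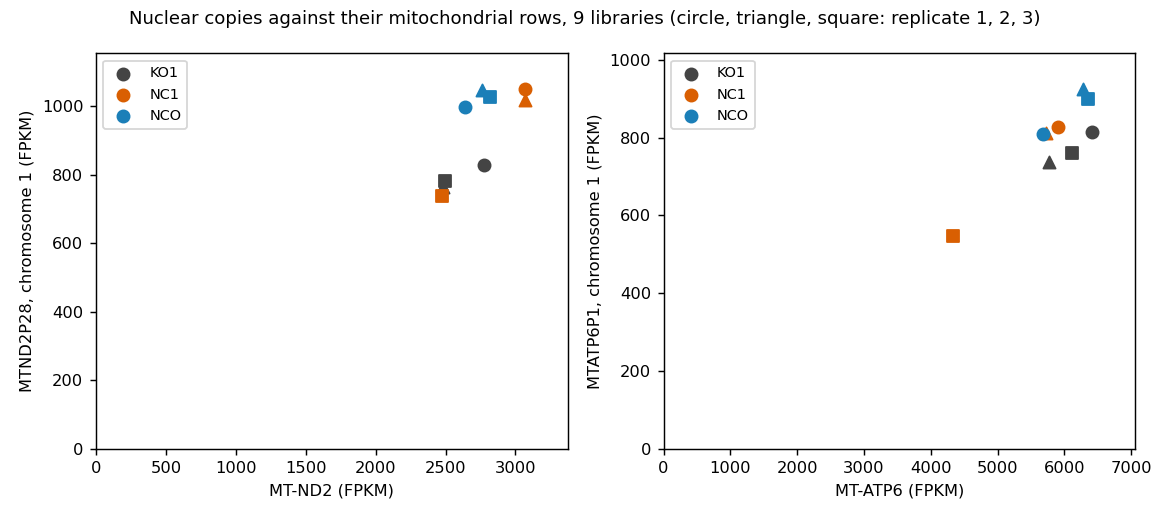
FPKM of the nuclear copies MTND2P28 and MTATP6P1 (vertical axes) against that of MT-ND2 and MT-ATP6 (horizontal axes), with 1 symbol per library coloured by group. The copies stand at 29.8 to 37.8% and at 12.5 to 14.7% of the level of the mitochondrial row.

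Nuclear genes for the upkeep of mitochondrial DNA and for the transcription, processing and decay of its RNA were read as a list of 56 genes, all of which were tested. In NC1 minus KO1, 10 were called higher and 8 lower, with a median log2 change of 0.11. In NCO minus KO1 the counts were 13 and 9, with a median of 0.05, and in NCO minus NC1 they were 0 and 2. Against backgrounds of 47.2%, 52.2% and 14.7% of genes called, these are smaller shares than among all genes.

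POLRMT, the polymerase that copies mitochondrial DNA into RNA, stood at 18.2, 17.5 and 19.2 FPKM (KO1), 20.8, 20.4 and 19.9 (NC1) and 20.3, 19.2 and 19.0 (NCO). It was called higher in NC1 than in KO1 (0.15, SE 0.054, adjusted p = 0.0428). TFAM, which packages mitochondrial DNA and starts transcription, stood at 2.81, 3.07 and 3.01 FPKM (KO1), 3.10, 3.54 and 3.94 (NC1) and 4.17, 4.06 and 3.78 (NCO). It was called higher in NCO than in KO1 (0.34, SE 0.084, adjusted p = 0.00629). POLRMT and TFAM were picked after their values were seen, and their calls were not followed under the alternatives. They do not stand for the list. Of its 8 genes of mitochondrial transcription, 2 were called higher and 1 lower in NC1 minus KO1. In NCO minus KO1, 1 was called higher and 1 lower. MTERF2, of the mitochondrial termination factor family, rose from 0.600 ± 0.149 FPKM in KO1 to 1.79 ± 0.177 in NC1 (0.80, SE 0.10, adjusted p = 7.55e-05) and 1.254 ± 0.0658 in NCO (0.50, adjusted p = 0.00182). Its KO1 libraries lay under the filter of 1 FPKM, and it was tested only through the groups where it was higher. Its calls against KO1 are therefore no independent support for a rise, and the pseudocount of 1 shrinks its fold change.

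MRM3, which methylates the 16S rRNA made from MT-RNR2, stood at 4.89, 5.06 and 4.73 FPKM (KO1), 9.35, 9.89 and 10.3 (NC1) and 8.29, 8.25 and 7.06 (NCO), and the 3 groups did not overlap. It rose in NC1 (0.88, SE 0.073, adjusted p = 3.17e-06) and in NCO (0.59, SE 0.073, adjusted p = 6.80e-05) against KO1 and was lower in NCO than in NC1 (−0.29, adjusted p = 0.0230), a call lost without NC1 replicate 2 or 3 or NCO replicate 3 and under no filter on low values or an equal mitochondrial mRNA sum (adjusted p of 0.0593 to 0.0971). SLIRP, which with LRPPRC stabilises mitochondrial mRNAs, stood at 62.3, 60.3 and 59.6 FPKM (KO1), 91.6, 97.4 and 88.1 (NC1) and 64.9, 68.5 and 76.6 (NCO). It was called higher in NC1 than in KO1 (0.60, SE 0.062, adjusted p = 1.71e-05) and lower in NCO than in NC1 (−0.40, SE 0.062, adjusted p = 0.00302). In SLIRP too the 3 groups did not overlap, with NC1 highest.

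Among genes that act on tRNAs, HSD17B10, a subunit of the mitochondrial RNase P that cuts the 5′ ends of tRNAs, stood at 47.6, 53.0 and 49.1 FPKM (KO1), 37.9, 42.0 and 39.3 (NC1) and 35.5, 32.8 and 39.7 (NCO). It fell in NC1 (−0.32, SE 0.071, adjusted p = 0.00326) and in NCO (−0.46, SE 0.071, adjusted p = 0.000273) against KO1. MTO1, which modifies the wobble uridine of several mitochondrial tRNAs, stood at 6.89, 11.5 and 5.48 FPKM (KO1), 4.25, 3.20 and 5.19 (NC1) and 5.33, 4.90 and 4.15 (NCO). It was called lower in NC1 than in KO1 (−0.74, SE 0.23, adjusted p = 0.0235), a call lost without NC1 replicate 1 or 2 and under no filter on low values or an equal mitochondrial mRNA sum (adjusted p of 0.0586 to 0.121). NCO minus KO1 was −0.58 (adjusted p = 0.0571) and was called without KO1 replicate 3 or NC1 replicate 2, or under trimmed-mean scaling or quantile normalisation (adjusted p of 0.0143 to 0.0494). PUS1, a pseudouridine synthase that acts on tRNAs, stood at 17.4 ± 3.17, 12.6 ± 2.04 and 12.5 ± 1.504 FPKM in the order KO1, NC1 and NCO (log2 fold change against KO1 of −0.43, adjusted p = 0.0320, and −0.43, adjusted p = 0.0292). The PUS1 calls were lost without KO1 replicate 1 or 2 or NC1 replicate 1 or 2 and under no filter on low values (adjusted p of 0.0516 to 0.112) in NC1 and without KO1 replicate 1 or 2 or NCO replicate 3 and under no filter on low values or an equal sum outside chromosome MT (adjusted p of 0.0802 to 0.102) in NCO. FASTKD5, which is needed to cut precursors at junctions without a tRNA, such as that between MT-ATP6 and MT-CO3, stood at 2.88 ± 0.0642, 4.21 ± 0.295 and 3.82 ± 0.532 FPKM in the same order (NC1 minus KO1 0.42, adjusted p = 0.00288, and NCO minus KO1 0.31, adjusted p = 0.0156), and its NCO call was lost without NCO replicate 1 or 2 and under quantile normalisation or an equal mitochondrial mRNA sum (adjusted p of 0.0611 to 0.280). ANGEL2 stood at 6.50 ± 0.254, 8.32 ± 0.498 and 9.84 ± 1.255 FPKM (NCO minus KO1 0.53, adjusted p = 0.000415), and RRM2B, a ribonucleotide reductase subunit that supplies nucleotides for mitochondrial DNA, at 2.74 ± 0.161, 3.52 ± 0.172 and 4.20 ± 0.403 (0.47, adjusted p = 0.000603). Both were also called higher in NC1 than in KO1. That call was lost under quantile normalisation or an equal mitochondrial mRNA sum for ANGEL2 (adjusted p of 0.0912 to 0.0966). For RRM2B it was lost under the same settings and without KO1 replicate 1 (adjusted p of 0.0629 to 0.171).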

How the data were processed

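RNA was sequenced from MV4-11 cells in 9 libraries, which were grouped by title stem. Values per gene were deposited by the authors as FPKM. The table's header does not name the unit, and FPKM was read from its values, which are not whole and sum to different totals per library, and from StringTie, which writes FPKM. Per the submitters' processing notes, CASAVA 1.8, Trimmomatic, FastQC, HISAT2, StringTie and edgeR were used on GRCh38, and the annotation release is not given in the sources used here. The workbook's other sheets were not used here. Columns that belong to no sample numbered 0. Low values were tested for steps of whole reads: at most 0.5497% of values under 0.1 FPKM shared a ratio between a pair of libraries, and reads were not recovered, so no counting interval can be given.

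All 9 libraries were fitted by group in limma 3.58.1 (R 4.3.3), with trend and robust empirical Bayes moderation, on log2(FPKM + 1) for the 12586 genes with at least 1 FPKM in at least 3 libraries, and 48026 rows were left out. P-values are two-sided and Benjamini-Hochberg adjusted, with calls at an adjusted p under 0.05. The method was tested on simulated data with independent noise for each gene and few changed genes. These data have many called genes, so that test does not bear on the calls here. Shares, ratios and compositions are sums over rows, given without a test.

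Every mitochondrial row was described. From the list of 56 nuclear genes, members called were named up to the 6 of largest change per comparison, together with the 3 nuclear copies of highest mean. The members and lists were chosen with earlier results of these data known. Sequences, identities and overlaps were read from GENCODE 29. Replicate numbers do not pair the libraries: deviations of same-numbered libraries from their group means correlated at −0.101 to 0.0797. One of the listed marker genes is not reported here.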

Additional observations from a re-analysis of the deposited data

How the results depend on the processing

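Of 1998 values for single mitochondrial rows under the alternatives, 1793 kept their side of the threshold, 66 gained a call and 137 lost one. A further 2 reversed, which means a change of sign with a call in the main fit or the alternative. Values that changed sign without a call in either fit are counted among the 1793. For the 9 named nuclear genes, counted in the same way, 443 of 486 values kept their side, 8 gained a call and 35 lost one. The reversed values were MT-CO1 under quantile normalisation, at −0.17 (adjusted p = 0.0450) in NC1 minus KO1 and −0.093 (adjusted p = 0.243) in NCO minus KO1. Where no cause is named, the cause was not tested.

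Mitochondrial rows called in NC1 minus KO1 numbered 13, and 8 with the mitochondrial mRNA sum made equal, an alternative chosen after seeing the data. Leaving out 1 library gave 11 to 23, the highest without NC1 replicate 3. In NCO minus NC1 the 10 became 5 with no filter, 6 under quantile normalisation, 4 with equal mRNA sums and 4 to 14 with 1 library left out, the lowest without NCO replicate 1 or 2. In NCO minus KO1 the 23 became 15 with equal mRNA sums and 17 to 27 with 1 library left out.

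Handling genes called in NC1 minus KO1 fell from 18 to 9 with no filter, and in NCO minus KO1 from 22 to 13. In NCO minus NC1 the 2 became 1 with no filter, 4 under trimmed-mean scaling, 7 with an equal sum outside chromosome MT, and 1 to 3 with 1 library left out. All genes called in that comparison numbered 1855, then 781 with no filter and 908 to 1716 with 1 library left out.

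The NCO minus KO1 difference in the mitochondrial share was 3.13 percentage points, 2.32 without the rRNA rows and 2.90 to 3.45 with 1 library left out. For NC1 minus KO1 it was 1.54, 0.784 without the rRNA rows and 0.977 to 2.53 with 1 library left out, and for the mRNA share alone 0.0132 to 1.36. For NCO minus NC1 the ranges were 0.607 to 2.16 and 0.359 to 1.71.

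With a replicate block, 14, 9 and 21 mitochondrial rows were called in the comparisons NC1 minus KO1, then NCO minus NC1, then NCO minus KO1, with 5618, 1389 and 6230 genes in all and 13, 2 and 20 handling genes. The block ended the calls of MT-ND5, MT-RNR1 and MT-ND4L in NCO minus NC1, of MT-ND1 and MT-TS1 in NCO minus KO1 and of MTO1 in NC1 minus KO1 (adjusted p of 0.0515 to 0.0944). It made calls of MT-TK in NC1 minus KO1 and of MT-TC and MT-TS2 in NCO minus NC1 (adjusted p of 0.0356 to 0.0482). It moved no other call of these rows or of the named nuclear genes. Depth behind the FPKM values is unknown, so the lowest tRNA rows cannot be given a counting error.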
